A study of Mus musculus with 8 samples.

Results

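The genes described here are 10 regulators of the mesendoderm and the primitive streak, Eomes, T, Mixl1, Gsc, Mesp1, Foxa2, Lhx1, Tbx6, Evx1 and Cer1, among the 55335 genes counted by RNA-seq in E14 ESCs, a mouse embryonic stem cell line. They were selected on their gene symbols, with no threshold on any value, but the list was drawn up with earlier results of the same libraries known. Their levels are therefore a description, and the adjusted p given for them, each from the test over all genes, supports nothing beyond that description. The 8 libraries form 4 groups of 2 biological replicates, all of E14 ESCs infected with a lentivirus and selected with puromycin. The control group (NG) carried a control shRNA, and the other groups carried shRNAs against Sox2 (Sox2-KD), Hnrnpk (hnRNPK-KD) or Cdk9 (Cdk9-KD). The study designed 2 hairpins per target, and the labels do not say which of them a library holds. Every group was grown on gelatin in medium with serum, LIF, CHIR99021, which inhibits GSK3 and so activates Wnt signalling, and PD0325901, which inhibits MEK. SOX2 is a transcription factor of pluripotent cells, hnRNPK an RNA-binding protein, and CDK9 the kinase that releases paused RNA polymerase II.

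In the embryo the primitive streak forms where Nodal, Wnt and BMP signals meet, and the cells that pass through it become mesoderm and definitive endoderm. The T-box factors Eomes and T (Brachyury) and the homeobox factors Mixl1 and Evx1 are induced there first. Gsc, Foxa2, Lhx1 and the secreted antagonist Cer1 mark the anterior streak and the mesendoderm that leaves it, while Mesp1 and Tbx6 mark nascent and paraxial mesoderm. Embryonic stem cells held by LIF and inhibitors keep most of these genes at low levels.

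The libraries held 16709201 to 17719366 counts each. Sox2 mRNA stood at 68.0% and 60.1% of the control mean in the 2 Sox2-KD libraries, and Cdk9 mRNA at 61.4% and 44.7% in the 2 Cdk9-KD libraries. Hnrnpk mRNA stood at 62.7% in replicate 1 and at 103% in replicate 2 of its group, so that group is called the hnRNPK-KD-labelled libraries throughout and only replicate 1 shows the knockdown. Levels are CPM, counts scaled to a common library size, after TMM normalization, and levels of different genes are compared only as CPM per kb of exon. A gene was called at an adjusted p under 0.05, from the quasi-likelihood test in edgeR with Benjamini-Hochberg adjustment, together with a log2 fold change (log2FC) over 0.6 in either direction. All 10 genes of an embryonic stem cell marker list, such as Pou5f1 and Nanog, were tested and none of the 10 was called in any knockdown by this test, with 2 in Sox2-KD, 0 in the hnRNPK-KD-labelled libraries and 1 in Cdk9-KD at an unadjusted p under 0.05, and 1 in Sox2-KD called by DESeq2. Over all 16504 genes tested, 3182 stood at an unadjusted p under 0.05 in Sox2-KD, 1325 in the hnRNPK-KD-labelled libraries and 1720 in Cdk9-KD. In the same order 4.32%, 0% and 0.139% of them were called. The counts of every gene list below are to be read beside these. Nothing in the labels ties the replicates to separate days or clones, so the p-values measure the spread between these libraries.

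The 250 bases upstream of the RefSeq start are shown for the 3 genes that were called in Sox2-KD (Eomes, Gsc and Evx1) and for T, which had the highest level per kb. They are from RefSeq on GRCm38.p6, and 9 of the 10 genes had an entry, Mixl1 being the one without. Each is written 5′ to 3′ on the strand of its gene, and capitals mark a match to a searched motif.
Eomes, + strand, chr9:118477939-118478188: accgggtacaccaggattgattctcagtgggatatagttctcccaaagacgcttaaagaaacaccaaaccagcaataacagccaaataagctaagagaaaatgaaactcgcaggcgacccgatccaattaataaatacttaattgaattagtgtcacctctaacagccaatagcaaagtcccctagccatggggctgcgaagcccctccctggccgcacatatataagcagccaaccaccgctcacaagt
T, + strand, chr17:8434173-8434422: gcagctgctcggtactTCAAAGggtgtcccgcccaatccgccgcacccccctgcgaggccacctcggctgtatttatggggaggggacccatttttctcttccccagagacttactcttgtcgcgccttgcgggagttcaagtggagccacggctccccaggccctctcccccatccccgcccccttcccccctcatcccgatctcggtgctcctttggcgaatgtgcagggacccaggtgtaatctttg
Gsc, − strand, chr12:104473237-104473486: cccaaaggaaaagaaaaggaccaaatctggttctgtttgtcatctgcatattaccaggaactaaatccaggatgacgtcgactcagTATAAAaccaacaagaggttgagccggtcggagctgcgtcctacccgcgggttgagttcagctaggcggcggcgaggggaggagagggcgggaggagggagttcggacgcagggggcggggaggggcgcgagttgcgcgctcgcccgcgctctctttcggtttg
Evx1, + strand, chr6:52313248-52313497: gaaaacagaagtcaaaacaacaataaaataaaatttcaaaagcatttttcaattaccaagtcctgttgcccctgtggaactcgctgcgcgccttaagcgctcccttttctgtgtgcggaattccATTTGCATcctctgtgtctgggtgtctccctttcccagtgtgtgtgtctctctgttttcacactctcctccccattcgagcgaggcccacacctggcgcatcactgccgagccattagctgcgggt
The motifs, searched on both strands, were ACAAAG or ACAATG for SOX factors, TCAAAG for TCF/LEF factors (the DNA-binding partners of β-catenin in Wnt signalling), GGTGTGA for T-box factors, ATGCAAAT for OCT factors and TATAAA for the TATA box. In T, TCAAAG ended 229 bases before the start, a motif that 13.8% of 32851 promoter windows of the same length held. In Evx1, ATGCAAAT, on the opposite strand, had its last base in this reading 119 bases before the start, where it reads ATTTGCAT, and 1.6% of windows held it. In Gsc, TATAAA ended 159 bases before the RefSeq start (12.4% of windows). That start lies inside the gene span given below for Gsc, so a part of its window is inside that span. The window of Eomes held none of these letters, and its RefSeq start lies upstream of the span given below for Eomes. The SOX letters were in 25.2% and the T-box letters in 3.33% of all windows, and in none of these 4. Such a match is a description of the letters and not a binding site.

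Of the 10 genes, 6 had enough counts to be tested, namely Eomes, T, Mixl1, Gsc, Tbx6 and Evx1. Eomes and T reached the filter's minimum in all 8 libraries. Evx1 reached it only in the 2 Sox2-KD libraries, where it was highest, and so was tested only because it was high there. Tbx6 reached it in 3 libraries, and Mixl1 and Gsc in 4 each. In control, T was the highest per length at 7.92 ± 4.76 CPM per kb (SD, n = 2). Gsc at 0.850 ± 0.116 and Eomes at 0.771 ± 0.213 CPM per kb came next, and they did not differ beyond their spread. Mixl1 at 0.236 ± 0.125 and Tbx6 at 0.172 ± 0.109 CPM per kb also lay within each other's spread. Evx1 was lowest at 0.00996 ± 0.0141 CPM per kb.

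**Figure D1:**
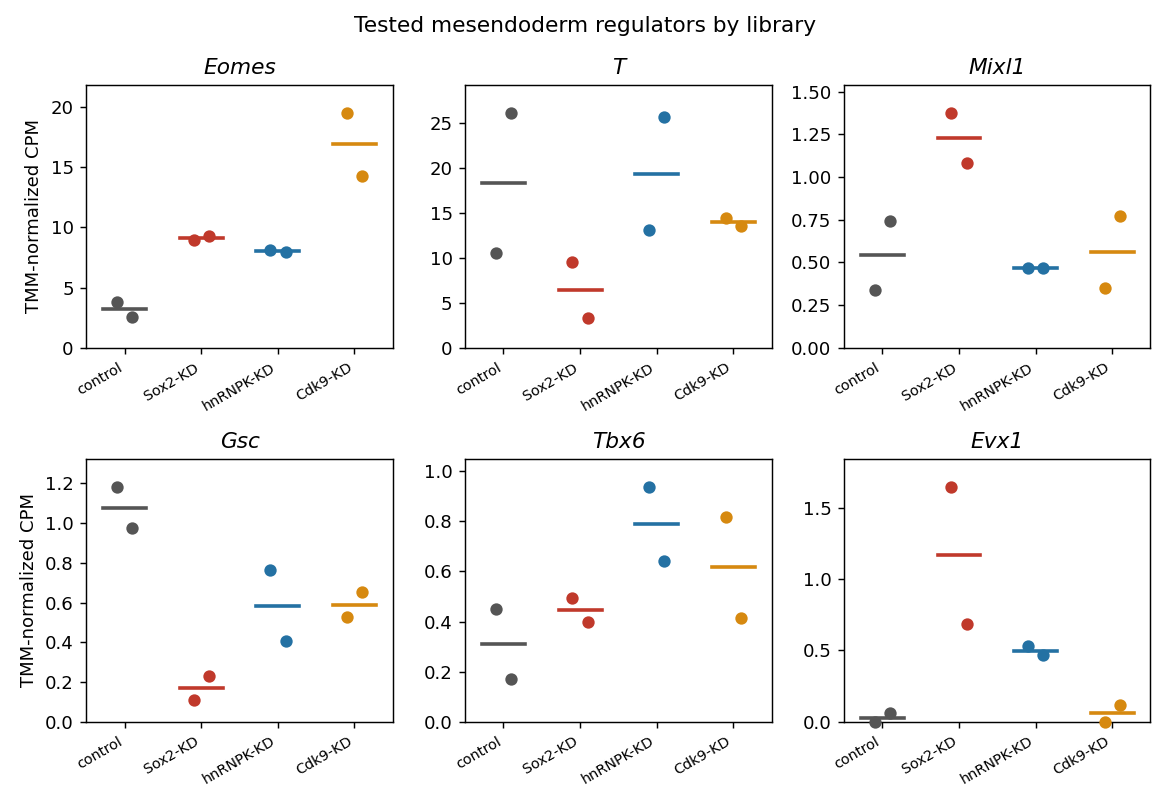
TMM-normalized CPM (linear vertical axes starting at 0, one scale per gene) of the 6 tested regulators in each library, by group; points are libraries and bars the mean of the 2 replicates. Eomes is lowest in the 2 control libraries (2.58 and 3.83 CPM) and highest in the 2 Cdk9-KD libraries (14.3 and 19.5 CPM), Gsc is lowest in Sox2-KD, and the 2 control libraries of T stand apart (10.5 and 26.1 CPM).

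Eomes (chromosome 9, 118478212 to 118486132, + strand), the T-box factor needed for mesoderm delamination and definitive endoderm, was higher in all 6 libraries with a targeting shRNA than in either control library, replicate 2 of the hnRNPK-KD-labelled libraries included, in which Hnrnpk was not lower. Control libraries had 3.83 and 2.58 CPM, Sox2-KD libraries 8.96 and 9.25 CPM, the hnRNPK-KD-labelled libraries 8.09 and 7.92 CPM, and Cdk9-KD libraries 19.5 and 14.3 CPM. The order of the groups was therefore control, hnRNPK-KD, Sox2-KD and Cdk9-KD, with no overlap between any neighbours, although the middle pair lay close together. Eomes rose in Sox2-KD (log2FC 1.50, SE 0.28, adjusted p = 0.0166) and in Cdk9-KD (log2FC 2.39, SE 0.28, adjusted p = 0.0191). In the hnRNPK-KD-labelled libraries its log2FC was 1.32 (SE 0.28), which did not pass the adjusted test there (adjusted p = 0.304). These 3 comparisons share the control libraries, and Eomes was the lowest of the 8 in control replicate 2. How many of all genes set the 6 libraries with a targeting shRNA apart from control in this way was not counted. Sox2-KD lay below Cdk9-KD by a log2FC of −0.89 (SE 0.26), which was not called (adjusted p = 0.0690). Sox2-KD and the hnRNPK-KD-labelled libraries differed by a log2FC of 0.19 (SE 0.27, adjusted p = 0.742). With 1 library left out, the adjusted p for Sox2-KD was 0.0503 without control replicate 1, 0.135 without control replicate 2, 0.0567 without Sox2-KD replicate 1 and 0.0899 without Sox2-KD replicate 2, with log2FC of 1.24 to 1.80. For Cdk9-KD it was 0.0630 when control replicate 1 was left out and 0.162 when control replicate 2 was. In RNA from whole cultures, more cells with Eomes mRNA and more Eomes mRNA per cell cannot be told apart.

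Eomes is also a gene of the trophectoderm, the outer lineage of the blastocyst, so the markers of that lineage are given beside it. Of 11 trophectoderm markers 8 were tested. In Sox2-KD 4 of them (Gata3, Krt8, Krt18 and Esx1) rose and 4 were not called, where 2.63% of all genes were called higher. Gata3 had a mean of 0.227 CPM in control and 2.61 CPM in Sox2-KD (log2FC 3.48, SE 0.58, adjusted p = 0.0103). Esx1 had means of 0.768 and 3.33 CPM (log2FC 2.11, SE 0.42, adjusted p = 0.0214). None of the 8 was called in the hnRNPK-KD-labelled libraries (1 at an unadjusted p under 0.05, 0 in DESeq2). Tfap2c fell in Cdk9-KD (log2FC −2.04, SE 0.31, adjusted p = 0.0416). The summed level of the list was 142 to 149 CPM in control, 236 to 368 CPM in Sox2-KD and 124 to 132 CPM in Cdk9-KD, where Eomes was highest. Krt8 and Krt18, the keratins of simple epithelia, carried the higher sum in Sox2-KD, since the other 9 markers summed to 120 to 129 CPM in control and 97.1 to 103 CPM in Sox2-KD. Gata3 and Esx1, which rose, are among these 9 but at low levels. Cdx2, a defining factor of trophectoderm, had 19.8 and 35.1 CPM in control against 6.10 and 6.22 CPM in Sox2-KD (log2FC −2.15, adjusted p = 0.0521). Elf5, another trophectoderm factor, had at most 2 counts in any library. The part of trophectoderm-like RNA in the Sox2-KD level of Eomes was not tested. The antisense gene Gm33460 shares 118 exon bases with Eomes and held 42 counts over the 8 libraries against 1286 for Eomes. Those 42 counts do not measure the reads in the shared bases. Without a stated strand setting such reads could be counted for Eomes, so a part of its counts is uncertain.

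T (chromosome 17, 8434423 to 8442496, + strand), the founding T-box gene and a direct target of Wnt signalling, was the most abundant of the 10 per length in the mean of every group. It had 10.5 and 26.1 CPM in control, 9.56 and 3.31 CPM in Sox2-KD, 13.1 and 25.7 CPM in the hnRNPK-KD-labelled libraries, and 14.5 and 13.6 CPM in Cdk9-KD. Both Sox2-KD libraries lay below all others, but the replicates of control differed 2.48-fold, those of Sox2-KD 2.89-fold and the hnRNPK-KD-labelled ones 1.96-fold. The log2FC was −1.51 in Sox2-KD (SE 0.52, adjusted p = 0.136), 0.08 in the hnRNPK-KD-labelled libraries (SE 0.50, adjusted p = 0.982) and −0.38 in Cdk9-KD (SE 0.50, adjusted p = 0.854), so T was not called in any of them. With 1 library left out, the Sox2-KD value ran from −2.48 without Sox2-KD replicate 1 (adjusted p = 0.0655) to −0.71 without control replicate 2 (adjusted p = 0.626). The direct difference between Sox2-KD and the hnRNPK-KD-labelled libraries was −1.59 (SE 0.52, adjusted p = 0.104). It was called without Sox2-KD replicate 1 (−2.56, adjusted p = 0.0404). Among the other groups, control, Cdk9-KD and the hnRNPK-KD-labelled libraries did not differ beyond their spread.

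The wide spread of T between control replicates was set beside 5 genes known to respond to Wnt signalling in the streak, of which Axin2, Sp5, Cdx1 and Cdx2 were chosen after their values were seen. Nkx1-2, a homeobox gene of the posterior streak, had 33.9 and 71.3 CPM in control, and Axin2, a feedback inhibitor of the Wnt pathway, 89.9 and 193 CPM. In control replicate 2, where T was high, Sp5, Cdx1 and Cdx2 were also above control replicate 1. The share of all genes higher in that replicate was not counted, so the likeness to T is a description and supports nothing. Replicate 2 of the hnRNPK-KD-labelled libraries had more T, Nkx1-2, Axin2, Sp5, Cdx1 and Cdx2 than replicate 1, with Cdx2 at 85.1 against 20.3 CPM. The Cdk9-KD replicates did not show this, as T was level at 14.5 and 13.6 CPM while Nkx1-2 had 55.6 and 109 CPM, Sp5 69.3 and 42.9 CPM and Cdx1 125 and 90.7 CPM. In Sox2-KD these genes went separate ways. Nkx1-2 fell to 8.35 and 5.88 CPM (log2FC −2.88, SE 0.48, adjusted p = 0.0107), whereas Sp5, at 120 and 133 CPM, lay above all 6 other libraries without being called (log2FC 0.89, adjusted p = 0.179), and Axin2 lay inside the control range at 156 and 168 CPM.

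**Figure D2:**
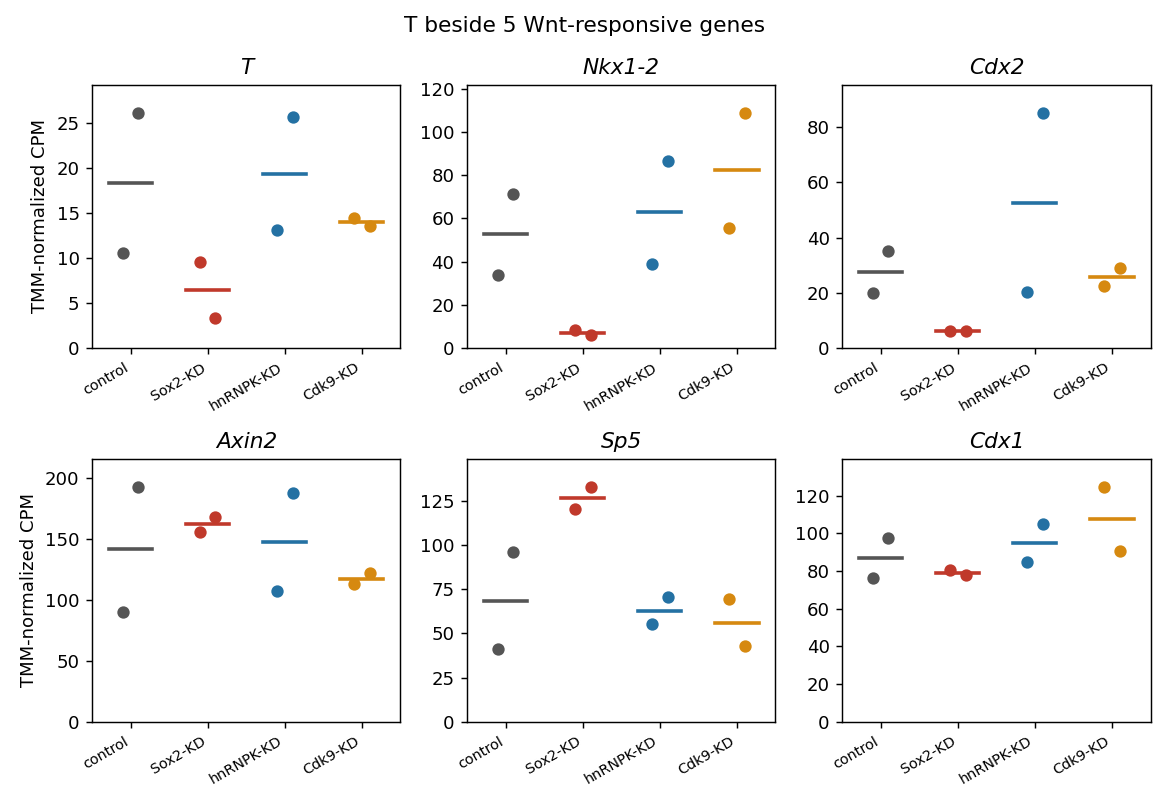
TMM-normalized CPM (linear vertical axes starting at 0) of T and 5 Wnt-responsive genes in each library, by group; points are libraries and bars group means. All 6 genes are higher in control replicate 2 than in replicate 1, and in Sox2-KD T, Nkx1-2 and Cdx2 are at their lowest while Sp5 is at its highest (120 and 133 CPM). Axin2, Sp5, Cdx1 and Cdx2 were chosen after their values were seen.

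Evx1 (chromosome 6, 52313498 to 52318378, + strand), an even-skipped homeobox factor of the posterior streak, was close to undetected in control and Cdk9-KD and present in Sox2-KD. Its counts were 0 and 1 in control, 30 and 12 in Sox2-KD, 9 and 8 in the hnRNPK-KD-labelled libraries, and 0 and 2 in Cdk9-KD. In CPM this was at most 0.0573 in control, 1.65 and 0.685 in Sox2-KD, 0.528 and 0.466 in the hnRNPK-KD-labelled libraries, and at most 0.118 in Cdk9-KD. All 4 libraries of Sox2-KD and hnRNPK-KD lay above all 4 of control and Cdk9-KD, and the Sox2-KD libraries above the hnRNPK-KD-labelled ones. The summed counts of Sox2-KD were 41.4 times those of control after scaling (exact 95% interval 7.04 to 1674, which covers counting error only), and those of the hnRNPK-KD-labelled libraries 17.5 times (2.74 to 731). Evx1 rose in Sox2-KD (log2FC 5.05, SE 1.05, adjusted p = 0.0251), a fitted value that depends on the prior count. It was also called higher in Sox2-KD than in Cdk9-KD (log2FC 4.16, SE 0.95, adjusted p = 0.0249), a ratio of 20.0 in summed counts (5.20 to 171). Evx1 reached the filter's minimum only in the Sox2-KD libraries, so it was tested because it was high there. Both calls are therefore a description and support nothing. The log2FC of 3.82 in the hnRNPK-KD-labelled libraries was not called (SE 1.17, adjusted p = 0.480), nor was the difference of 1.22 between Sox2-KD and them (SE 0.68, adjusted p = 0.334). Against control the log2FC was 4.17 without control replicate 1 (adjusted p = 0.174), 7.36 without control replicate 2 (adjusted p = 0.113) and 4.27 without Sox2-KD replicate 1 (adjusted p = 0.117). Against Cdk9-KD it was 3.25 without Cdk9-KD replicate 1 (adjusted p = 0.107), 7.36 without Cdk9-KD replicate 2 (adjusted p = 0.0562) and 3.38 without Sox2-KD replicate 1 (adjusted p = 0.130). The antisense gene Evx1os shares 73 exon bases with Evx1 and held 13 counts over the 8 libraries against 62 for Evx1, so that a part of the Evx1 counts is uncertain where strand was not kept.

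Mixl1 (chromosome 1, 180693043 to 180697034, − strand), a paired-type homeobox factor of the streak, had few counts. Its level was 0.338 and 0.745 CPM in control, 1.37 and 1.08 CPM in Sox2-KD, 0.469 and 0.466 CPM in the hnRNPK-KD-labelled libraries, and 0.350 and 0.769 CPM in Cdk9-KD. Both Sox2-KD libraries were above the other 6, and the remaining groups overlapped. The log2FC of 1.18 in Sox2-KD (SE 0.55) was not called (adjusted p = 0.279), and those of −0.21 and 0.05 in the hnRNPK-KD-labelled libraries and in Cdk9-KD were smaller than their SE of 0.61 and 0.60.

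Gsc (chromosome 12, 104471209 to 104473330, − strand), the homeobox factor of the organizer and the anterior streak, was the tested gene that fell in Sox2-KD. Counts were 21 and 17 in control, 2 and 4 in Sox2-KD, 13 and 7 in the hnRNPK-KD-labelled libraries, and 9 and 11 in Cdk9-KD. As levels these were 1.18 and 0.974 CPM, 0.110 and 0.228 CPM, 0.762 and 0.407 CPM, and 0.526 and 0.651 CPM. All 6 libraries with a targeting shRNA were below both control libraries, and both Sox2-KD libraries were below all others. The share of all genes separated from the same control libraries in this way was not counted. Gsc fell by 2.63 on the log2 scale in Sox2-KD (SE 0.62, adjusted p = 0.0403), from 38 to 6 summed counts. The log2FC was −0.88 in the hnRNPK-KD-labelled libraries (SE 0.52, adjusted p = 0.743) and −0.87 in Cdk9-KD (SE 0.52, adjusted p = 0.608), neither of them called. Sox2-KD was below the hnRNPK-KD-labelled libraries by a log2FC of −1.75 (SE 0.66, adjusted p = 0.152) and below Cdk9-KD by −1.76 (SE 0.66, adjusted p = 0.145). The call against control was kept under 7 of 13 alternatives, the lowest share among the 5 calls of the 10 regulators. The looser thresholds among them (no limit on log2FC, adjusted p under 0.1) re-read the same fit and could only keep a call. Fits in which a gene was not tested or had no adjusted p are not among its alternatives. The call was lost without either control replicate, without either Sox2-KD replicate, with the replicate block and in DESeq2 (adjusted p = 0.117). The log2FC ran from −3.22 without Sox2-KD replicate 2 to −2.21 without Sox2-KD replicate 1.

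Tbx6 (chromosome 7, 126781483 to 126785560, + strand), the T-box factor that commits streak cells to paraxial mesoderm, had 3 to 16 counts per library. It stood at 0.450 and 0.172 CPM in control, 0.495 and 0.399 CPM in Sox2-KD, 0.938 and 0.640 CPM in the hnRNPK-KD-labelled libraries, and 0.818 and 0.414 CPM in Cdk9-KD. Only the hnRNPK-KD-labelled libraries lay wholly above control, and the other groups overlapped it. The log2FC was 0.51 in Sox2-KD (SE 0.67, adjusted p = 0.734), 1.32 in the hnRNPK-KD-labelled libraries (SE 0.63, adjusted p = 0.644) and 0.97 in Cdk9-KD (SE 0.65, adjusted p = 0.656).

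The remaining 4 genes were at or near the limit of detection and were not tested. Foxa2 (chromosome 2, 148042877 to 148046969, − strand), a forkhead factor of the node and the endoderm, had 2 and 1 counts in control, 6 and 0 in Sox2-KD, none in the hnRNPK-KD-labelled libraries, and 1 and 0 in Cdk9-KD. Mesp1 (chromosome 7, 79792241 to 79793788, − strand), the factor of nascent cardiac mesoderm, had at most 2 counts in a library. Lhx1 (chromosome 11, 84518284 to 84525535, − strand), a LIM homeobox factor of the anterior mesendoderm, had at most 3. Cer1 (chromosome 4, 82881751 to 82885148, − strand), which binds and blocks Nodal, BMP and Wnt ligands, had 1 count in all, in Sox2-KD replicate 2. A count of 0 allows up to 3 counts, or 0.165 to 0.177 CPM per library, so differences below that were not detectable at this depth. Foxa2, Lhx1 and Cer1 are also genes of the visceral endoderm. The summed level of 12 primitive and visceral endoderm markers was 14.5 to 15.9 CPM in control and 51.2 to 87.0 CPM in Sox2-KD. Foxa2, Lhx1 and Cer1 had no count above 6 there. Of the 12 markers 7 were tested. In Sox2-KD 2 of them (Gata6 and Dab2) rose and 5 were not called, where 2.63% of all genes were called higher. Without Dab2 the sum was 13.8 to 15.01 CPM in control and 16.2 to 32.8 CPM in Sox2-KD. In the hnRNPK-KD-labelled libraries the whole list summed to 18.5 to 33.1 CPM, with no marker of it called.

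Read together, 3 of the 6 tested genes were called in Sox2-KD against control, where 4.32% of the 16504 genes tested were called. The 2 called higher (Eomes and Evx1) stood beside 2.63% of all genes called higher, and the 1 called lower (Gsc) beside 1.69% called lower. Groups did not overlap for 5 of the 6 (all but Tbx6), against 53.3% of all genes. The set thus moved in both directions, with log2FC from −2.63 to 5.05 and a median of 0.84, beside 0.02 over all genes tested. Since Evx1 passed the filter through Sox2-KD alone, these counts and the median support nothing about the set.

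In the hnRNPK-KD-labelled libraries, 0 of the 6 and 0% of all genes were called by the quasi-likelihood test. At an unadjusted p under 0.05 stood 2 of the 6 (Eomes and Evx1) and 1325 of all genes. DESeq2 called Eomes (log2FC 1.31, adjusted p = 0.0183), among 83 genes in all. Mixl1, Gsc, Tbx6 and Evx1 had no adjusted p in DESeq2 here, so it could call only Eomes and T. The likelihood ratio test in edgeR also called Eomes alone of the 6 (adjusted p = 0.0157), among 87. Without replicate 2, in which Hnrnpk was not lower, 0 of the 6 were called and the log2FC of Eomes was 1.31 (adjusted p = 0.671). Groups did not overlap for 4 of the 6 (Eomes, Gsc, Tbx6 and Evx1), against 39.1% of all genes, and the median log2FC was 0.70, beside 0.02 over all genes.

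In Cdk9-KD, 1 of the 6 was called, Eomes, where 0.139% of all genes were called in either direction and 0.0545% higher. It was thus 1 of the 9 genes called higher in the whole comparison. Groups did not overlap for 2 of the 6 (Eomes and Gsc), against 39.2% of all genes, and the median log2FC was 0.47, beside 0.02. Between knockdowns, Sox2-KD differed from Cdk9-KD in 1 of the 6 (Evx1), where 7.33% of all genes were called. Since Evx1 passed the filter through Sox2-KD alone, this count supports nothing about the set. None of the 6 was called between Sox2-KD and the hnRNPK-KD-labelled libraries by the quasi-likelihood test (5.9% of all genes). At an unadjusted p under 0.05 stood 3 of the 6 (T, Mixl1 and Gsc) and 3518 of all genes, while DESeq2 called 0 of the 6 among 1275 genes and the likelihood ratio test 1 (T) among 1690. Between Cdk9-KD and the hnRNPK-KD-labelled libraries the quasi-likelihood test called none of the 6 and 0% of all genes. At an unadjusted p under 0.05 stood 2 of the 6 (Eomes and Evx1) and 943 of all genes. The likelihood ratio test also called none of the 6. DESeq2 called neither Eomes nor T there, while Mixl1, Gsc, Tbx6 and Evx1 had no adjusted p in it.

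**Figure D3:**
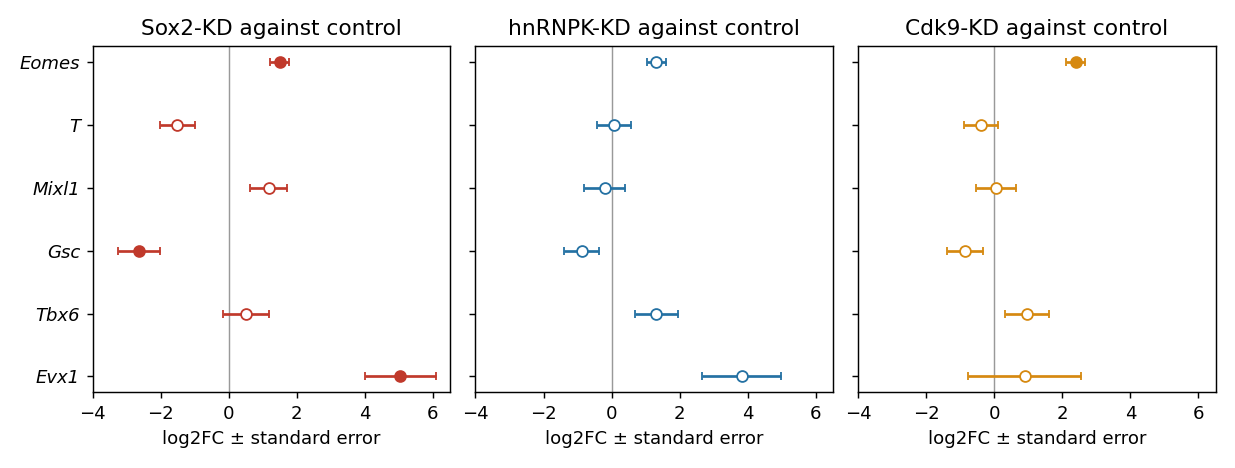
log2FC of each knockdown against control for the 6 tested regulators; points are estimates from the fit over all 8 libraries, bars 1 standard error, and filled points genes called. Eomes is filled in Sox2-KD (1.50) and Cdk9-KD (2.39), Gsc (−2.63) and Evx1 (5.05) in Sox2-KD alone, and the 3 panels share the same control libraries.

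The signals that induce the streak were then described from a list of 15 ligands, co-receptors, antagonists and effectors, of which 12 were tested. In Sox2-KD 2 of the 12 rose, where 2.63% of all genes were called higher. Wnt8a, a Wnt ligand of the early streak, had 0.169 and 0.286 CPM in control and 3.85 and 4.57 CPM in Sox2-KD (log2FC 4.17, SE 0.69, adjusted p = 0.0102). Its log2FC was 1.92 in the hnRNPK-KD-labelled libraries (adjusted p = 0.558) and 2.10 in Cdk9-KD (adjusted p = 0.363). Bmp4, the ligand that induces the posterior streak, had 17.4 and 27.6 CPM in control, 58.5 and 65.5 CPM in Sox2-KD, 49.2 and 71.5 CPM in the hnRNPK-KD-labelled libraries, and 88.3 and 87.8 CPM in Cdk9-KD. Bmp4 too was above control in all 6 libraries with a targeting shRNA, a separation whose share over all genes was not counted. It rose in Sox2-KD (log2FC 1.46, SE 0.24, adjusted p = 0.00948) and in Cdk9-KD (log2FC 1.97, SE 0.24, adjusted p = 0.0191). Bmp4 was not called in the hnRNPK-KD-labelled libraries (log2FC 1.43, SE 0.24, adjusted p = 0.173). Bmp4 was the 1 gene of the list called in Cdk9-KD, where 0.139% of all genes were called. None was called in the hnRNPK-KD-labelled libraries, where DESeq2 called 2, among 83 genes in all. At an unadjusted p under 0.05 stood 5 of the list there, beside 1325 of all 16504 genes tested. Nodal, the ligand upstream of Eomes and Mixl1, was not called, at log2FC of 0.30, −0.18 and 0.33 in Sox2-KD, the hnRNPK-KD-labelled libraries and Cdk9-KD. Lefty2, a Nodal antagonist and target, had a log2FC of 1.38 in Sox2-KD (adjusted p = 0.0573), 1.65 in the hnRNPK-KD-labelled libraries (adjusted p = 0.321) and 1.03 in Cdk9-KD (adjusted p = 0.358). The median log2FC of the list was 0.30, 0.17 and 0.06 in the same order, beside 0.02 over all genes.

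Of 26 further genes of nascent and paraxial mesoderm 13 were tested, and 2 of them fell in Sox2-KD, where 1.69% of all genes were called lower. These were Nkx1-2, described above, and Fgf3, a fibroblast growth factor of the posterior streak, which had 7.71 and 7.50 CPM in control and 0.824 and 1.08 CPM in Sox2-KD (log2FC −2.99, SE 0.32, adjusted p = 0.00232). No gene of this list was called in the hnRNPK-KD-labelled libraries (1 at an unadjusted p under 0.05, 0 in DESeq2) or in Cdk9-KD (2 and 1), and its median log2FC was 0.14, 0.15 and 0.20. Of 19 genes of anterior mesendoderm and definitive endoderm 13 were tested, and 1 rose in Sox2-KD, beside 2.63% of all genes called higher. This was Gata6 (log2FC 3.65, SE 0.62, adjusted p = 0.0111), with 0.225 and 0.286 CPM in control and 2.69 and 3.88 CPM in Sox2-KD. In the other knockdowns none of the 13 was called, with 2 in the hnRNPK-KD-labelled libraries and 4 in Cdk9-KD at an unadjusted p under 0.05 and 1 in each by DESeq2. Gata6 is also a defining factor of the primitive endoderm. Sox17, a factor of definitive endoderm that is also on the primitive and visceral endoderm list, had 2 and 4 counts in control and 17 and 10 in Sox2-KD (adjusted p = 0.200). Of 5 neural markers 2 were tested, Sox1 and Nes. In Sox2-KD Sox1 fell (log2FC −3.00, SE 0.50, adjusted p = 0.0102), where 1.69% of all genes were called lower. Nes was not called there (log2FC 0.003, adjusted p = 0.996). No gene was called by the quasi-likelihood test in any knockdown among the 3 tested formative epiblast markers and the 3 tested fibroblast markers, while DESeq2 called 2 formative markers in Cdk9-KD and 1 fibroblast marker in Sox2-KD. At an unadjusted p under 0.05 stood 0, 1 and 2 formative and 1, 1 and 0 fibroblast markers in Sox2-KD, the hnRNPK-KD-labelled libraries and Cdk9-KD.

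**Figure D4:**
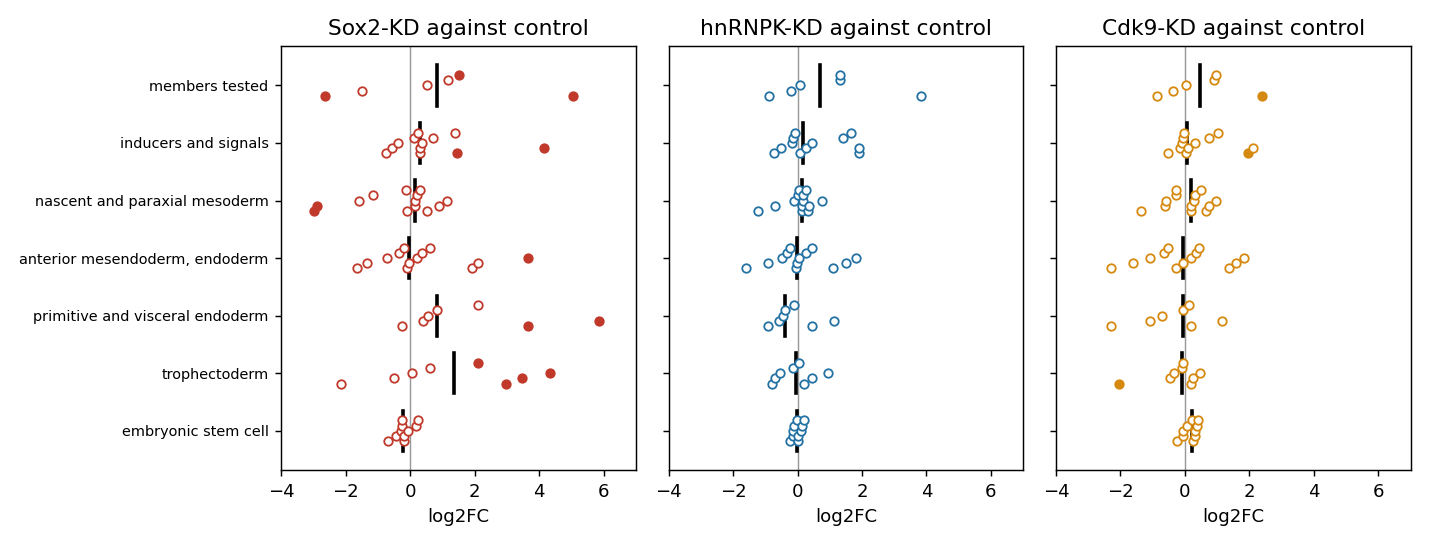
log2FC of each knockdown against control for the tested genes of 7 lists; each point is a gene, filled where it was called, the vertical position within a row is only for legibility, and black bars are list medians. In Sox2-KD the regulators spread from −2.63 to 5.05 while the embryonic stem cell markers have a median of −0.22 and no filled point, and in Cdk9-KD Eomes (2.39) and Bmp4 (1.97) are the filled points above 0.

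For the 3 regulators that were called, the genes with the most similar profile were ranked by Pearson correlation of log2 CPM over the 8 libraries, among 12522 genes for Eomes and 12523 for the others. These values describe 8 libraries that share groups, and the top ranks of so many genes are high by selection. Eomes was most like Borcs8 (r = 0.98), Zfp57 (0.98), Cog8 (0.97), Mboat7 (0.96) and Islr2 (0.96). Islr2 had 9.40 and 7.39 CPM in control and 40.9 and 44.5 CPM in Cdk9-KD, the same order of groups at its ends as Eomes. Gsc was most like Tfb1m, Fra10ac1, Mcf2, Rassf2 and Ada (r from 0.97 to 0.95), and Evx1 was most like Tcf12, Rtl8c and Bmp8a (r from 0.97 to 0.95). Counts of Gsc and Evx1 were sparse, and for Gsc only 3 of the 5 genes were kept with a prior count of 5 in place of 2.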

How the data were processed

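RNA-seq libraries (total RNA, oligo-dT selection, paired-end 150-base reads) were made from 8 cultures of E14 ESCs. The authors trimmed reads with Trimmomatic, aligned them with STAR to mm10 (GENCODE vM23) and deposited raw counts per gene from featureCounts, neither normalized nor pooled. The submitters' processing notes give STAR 2.7.9a and featureCounts 2.0.1. The strand setting and the treatment of shared reads are not given in the sources used here. The genes and gene lists were chosen with earlier results of these data known.

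Symbols came from GENCODE vM21 by Ensembl ID (55154 of 55335 matched). filterByExpr (minimum count 10, total 15) left 16504 genes. The test was edgeR 4.0.16 in R 4.3.3 (quasi-likelihood) with TMM factors and a group term over all 8 libraries, p-values being adjusted by Benjamini-Hochberg, and it was checked on simulated counts. The named genes were the 10 regulators, the targeted genes, the called genes of each list and the 5 genes most like each called regulator (average log2 CPM over 1), some of which are not reported here; values of other genes were chosen after they were seen. Totals of 16709201 to 17719366 counts per library set a floor of 3 counts per library. Intervals of count ratios are exact binomial (95%) and cover counting error only. Alternatives were DESeq2 1.42.0, other scalings, filters, thresholds and tests, the 4 compared libraries alone, a replicate block and each library left out. Plots used matplotlib 3.10.9 (Python 3.11.15). Protein sequences were not used here.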

Additional observations from a re-analysis of the deposited data

How the results depend on the processing

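The count of the 6 tested regulators called in Sox2-KD against control was 3, and it was 1 in DESeq2 (Eomes; Evx1 and Tbx6 had no adjusted p there) and 1 with at least 10 counts in every library (Eomes, since Gsc and Evx1 were not tested). Leaving out each library in turn gave 0 to 1. For the hnRNPK-KD-labelled libraries the count of 0 became 1 (Eomes) in DESeq2, where Mixl1, Gsc, Tbx6 and Evx1 had no adjusted p. It became 1 in the likelihood ratio test. For Cdk9-KD the count of 1 ranged from 0 to 1 with a library left out. Between Sox2-KD and the hnRNPK-KD-labelled libraries the count of 0 became 1 (T) in the likelihood ratio test, and ranged from 0 to 1 with a library left out. Between Sox2-KD and Cdk9-KD the count of 1 became 2 (Eomes and Evx1) in DESeq2, 2 in the likelihood ratio test, 2 at an adjusted p under 0.1 and 0 with at least 10 counts in every library, and ranged from 0 to 1 with a library left out.

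Single log2FC changed sign only where a library was left out. Over those fits Tbx6 ran from −0.017 to 1.33 in Sox2-KD, the low end coming without control replicate 2. In the hnRNPK-KD-labelled libraries T ran from −0.51 to 0.87 (−0.51 without replicate 2 of that group, −0.45 without control replicate 1) and Mixl1 from −0.69 to 0.45 (0.45 without control replicate 2). In Cdk9-KD T ran from −0.93 to 0.39 (0.39 without control replicate 2), Mixl1 from −0.61 to 0.69 (−0.61 without Cdk9-KD replicate 2, −0.45 without control replicate 1) and Evx1 from −2.32 to 3.19 (−2.32 without Cdk9-KD replicate 2). None of these was called in any fit. Of the single values under the alternatives, 323 kept direction and side of the threshold, 18 lost the call, 7 gained it and 8 changed sign. The looser thresholds on the same fit could lose no call and change no sign, so the 323 overstates how stable the values are. The cause of the changes was not tested.

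The correlations of deviations between same-numbered libraries ran from −0.22 to 0.21, with 0.21 for control and Sox2-KD. They did not share a sign over the groups and cannot exclude a pairing of some of them. The main fit had no replicate term. With the replicate block, 2 of the regulators (Eomes and Evx1) were called in Sox2-KD, Gsc having an adjusted p of 0.0582, and 1 in Cdk9-KD. Over all genes the calls were 695 with the replicate block against 713 in Sox2-KD, and 15 against 23 in Cdk9-KD. DESeq2 called 1029, 83 and 222 genes, and the likelihood ratio test 1350, 87 and 279, in the 3 comparisons with control, in the order used above. Below 3 counts per library the depth sets the limit, which concerns Mesp1, Foxa2, Lhx1, Cer1, the control and Cdk9-KD levels of Evx1 and the level of Gsc in Sox2-KD replicate 1, and so the calls of Evx1 and Gsc.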
